A study of Homo sapiens with 4 samples.

Results

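A set of 10 genes of prostaglandin E2 production was described in HaCaT, an immortalised human keratinocyte line, after cytokine treatment. They comprise 5 cytosolic phospholipase A2 genes (PLA2G4A, PLA2G4B, PLA2G4D, PLA2G4E and PLA2G4F), the cyclooxygenases PTGS1 and PTGS2, and the prostaglandin E synthases PTGES, PTGES2 and PTGES3. They were chosen by gene name, with their counts and FPKM (counts scaled to gene length and library size) in treated and untreated cells already known, so the differences between those groups are a description. The members entered the fit over all genes, but no p-value of a member is used as evidence. All 10 have a row among the 27356 genes of the deposited tables. The labels name 4 libraries of polyadenylated RNA: 2 of HaCaT cells labelled PBS and 2 of HaCaT cells exposed to M5. In each case the time was 72 h from a plating density of 50%. PBS, a phosphate buffer without cytokines, names the group without M5. M5 is a mix of oncostatin M, TNF-α, IL-22, IL-17 and IL-1α, each at 10 μg/L. The treatment tag of both M5 libraries instead names 25 μM of an agent abbreviated DAC, whereas their titles and the protocols name M5, and the titles were followed. HaCaT is 1 established line, and no label says whether the 2 libraries of a group came from separate cultures, so their spread may be technical.

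Prostaglandins are made in 3 steps. A phospholipase A2 releases arachidonic acid from membrane phospholipid, a cyclooxygenase turns it into the unstable intermediate prostaglandin H2, and a terminal synthase shapes that intermediate into a final product such as prostaglandin E2. In skin, prostaglandin E2 acts on keratinocyte growth, blood flow, pain and itch. PTGS1 is the cyclooxygenase that many tissues express at rest, and PTGS2 is the form that growth factors and cytokines induce and that is targeted by anti-inflammatory drugs.

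The libraries held from 15858644 to 19749612 counts. Keratinocyte markers were abundant, with all 7 present and a summed level of 3160 to 3625 FPKM. The listed leukocyte markers PTPRC, CD68 and LYZ had no row. The summed levels of the fibroblast, endothelial and melanocyte lists were between 0.281 and 0.724 FPKM in every library. CD3E, the leukocyte marker with a row, had at most 2 counts, and no listed marker with a row was at 0 in every library. In RNA from whole cultures, fewer cells expressing a gene and less of its RNA per cell cannot be told apart.

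The 2 cyclooxygenases differ in the DNA before their starts, and PTGES is shown beside them because it completes the pathway at a much higher level. Each sequence is the 250 bases before a start in RefSeq (GRCh38.p14), on the gene's strand, with capitals for matches, on either strand, to a TATA box (TATAAA), a C/EBP motif (TTNNGNAA), a cAMP response half-site (CGTCA), a GC box (GGGCGG), an AP-1 motif (TGANTCA), a STAT motif (TTCNNNGAA) or the kappaB consensus. A looser kappaB pattern, with only the outer bases fixed, was searched too and is not capitalised. PTGS2 is at chr1:186680424-186680673 on the minus strand, PTGS1 at chr9:122370283-122370532 on the plus strand, and PTGES at chr9:129753043-129753292 on the minus strand.
PTGS2: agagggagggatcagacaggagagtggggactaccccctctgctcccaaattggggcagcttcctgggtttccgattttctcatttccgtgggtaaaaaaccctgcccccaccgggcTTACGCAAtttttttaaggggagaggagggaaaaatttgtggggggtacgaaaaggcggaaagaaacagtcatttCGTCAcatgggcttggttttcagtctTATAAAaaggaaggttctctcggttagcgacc
PTGS1: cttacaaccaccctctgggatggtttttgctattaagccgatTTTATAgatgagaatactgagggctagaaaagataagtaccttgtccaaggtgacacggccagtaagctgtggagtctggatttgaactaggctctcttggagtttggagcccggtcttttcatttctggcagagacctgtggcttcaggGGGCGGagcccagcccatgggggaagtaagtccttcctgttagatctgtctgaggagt
PTGES: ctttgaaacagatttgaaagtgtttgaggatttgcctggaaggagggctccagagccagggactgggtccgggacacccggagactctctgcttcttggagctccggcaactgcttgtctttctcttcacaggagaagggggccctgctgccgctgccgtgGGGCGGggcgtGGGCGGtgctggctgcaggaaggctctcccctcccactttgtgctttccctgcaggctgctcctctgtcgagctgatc

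Counting back from the base before the start as -1, PTGS2 had TATAAA from -32 to -27, the half-site CGTCA from -58 to -54, and TTACGCAA, which fits the C/EBP motif on both strands, from -133 to -126. The looser kappaB pattern matched all 3 sequences, in PTGS2 as GGGACTACCC from -224 to -215, with overlapping matches on either side. Among 35114 promoters of the same length, 10.7% held TATAAA, 21.2% the half-site, 33.2% the C/EBP motif and 54.4% the looser kappaB pattern. The PTGS1 and PTGES sequences held GC boxes, 1 and 2 respectively, as did 42.6% of all promoters, and PTGS2 held none. PTGS1 also had TATAAA on the other strand, from -208 to -203. RefSeq lists a further PTGS1 start downstream, whose 250 bases held a GC box and a C/EBP match. None of these 3 printed sequences held the AP-1 motif (6.57% of promoters), the STAT motif (6.57%) or the kappaB consensus (9.96%). Of the members not printed, PTGES3 held the kappaB consensus. PLA2G4A and PLA2G4E held none of the motifs searched. The RefSeq window of PLA2G4E lies within its annotated gene, as does that of PLA2G4B. These matches are descriptions of letters and no binding was measured.

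The cyclooxygenase with the higher level was PTGS1 in PBS and PTGS2 in M5. PTGS1 (ENSG00000095303, chromosome 9, 122370530 to 122395703) was at 9.56 and 8.65 FPKM in the PBS libraries and at 1.01 and 0.928 FPKM in the M5 libraries, from 877, 803, 111 and 106 counts. PTGS2 (ENSG00000073756, chromosome 1, 186671791 to 186680427) was at 1.14 and 1.32 FPKM in PBS and at 14.2 and 16.5 FPKM in M5, from 99, 116, 1478 and 1789 counts. Both PBS libraries were high for PTGS1 and low for PTGS2, both M5 libraries were the reverse, and the groups did not overlap for either gene. The share of all genes without overlap was not counted, and 55.9% of all tested genes differed between the groups (edgeR, adjusted p under 0.05). Lack of overlap is therefore only a description, here and for the members below. On CPM (counts scaled to library size, with TMM factors), PTGS1 was 8.46-fold lower in M5, a log2 difference of -3.08 (SE 0.12), and PTGS2 13.9-fold higher, a log2 difference of 3.79 (SE 0.11). In the ranking of log2 differences over all 10809 genes tested, PTGS1 was number 30 from the lowest and PTGS2 number 99 from the highest.

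FPKM is scaled to gene length, so the 2 cyclooxygenases can be added. PTGS2 made up 10.6% and 13.2% of their summed FPKM in PBS and 93.4% and 94.7% in M5. The sum itself was 10.7 and 9.97 FPKM in PBS and 15.2 and 17.4 FPKM in M5. The level of all cyclooxygenase RNA was therefore closer between the groups than the level of either gene.

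**Figure D1:**
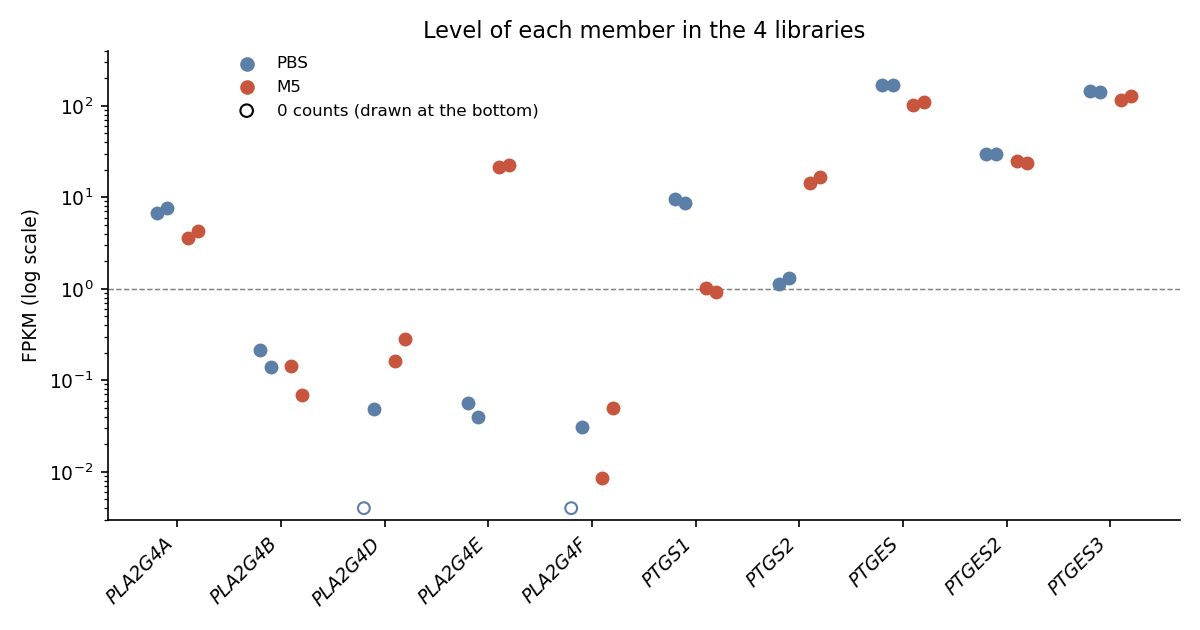
FPKM (vertical axis, log scale) of the 10 genes in each library, with PBS in blue and M5 in red, open circles for 0 counts and a dashed line at 1 FPKM, the mean required for testing. PLA2G4E and PTGS2 lie higher in both M5 libraries and PTGS1 lower, while the 3 synthases stay above 20 FPKM in every library.

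Among the 5 phospholipase members the highest level was that of PLA2G4A in PBS and of PLA2G4E in M5. PLA2G4A encodes the calcium-dependent cytosolic enzyme that is best known for releasing arachidonic acid. It (ENSG00000116711, chromosome 1, 186828953 to 186988981) was at 6.72 and 7.60 FPKM in PBS and at 3.62 and 4.27 FPKM in M5. Its log2 difference was -0.71 (SE 0.14), 1.63-fold lower in M5, and the groups did not overlap. PLA2G4E encodes a relative that also transfers acyl chains between phospholipids to form precursors of N-acylethanolamines. It (ENSG00000188089, chromosome 15, 41981582 to 42051190) had 7 and 5 counts in PBS and 3190 and 3485 counts in M5, which is 0.0569 and 0.0401 FPKM against 21.6 and 22.7 FPKM. Its CPM was 499-fold higher in M5, a log2 difference of 8.96, number 16 from the highest of all genes tested. The fitted SE of 0.14 understates the uncertainty of this value, because the PBS level rests on 7 and 5 counts. Without PBS replicate 1 the value was 9.23, and without PBS replicate 2 it was 8.74. PLA2G4A held 96.1% and 96.7% of the summed FPKM of the 5 phospholipase genes in PBS and 14.2% and 15.6% in M5, where PLA2G4E held 84.6% and 82.9%. The sum was 6.99 and 7.85 FPKM in PBS and 25.6 and 27.4 FPKM in M5.

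The reads of PLA2G4E need a caution about strand. The protocol names a kit whose reads carry no strand information, and 2 antisense genes lie over PLA2G4E. PLA2G4E-AS1, named after its values were seen, overlaps it by 17513 bp and had 1 and 2 counts in PBS and 87 and 73 in M5. ENSG00000257797 overlaps it by 3986 bp and had 0 counts in both PBS libraries and 25 and 11 in M5. Within these overlaps, reads of the antisense genes and of PLA2G4E cannot be told apart.

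The remaining 3 phospholipase genes had at most 29 counts in any library and did not reach a mean of 1 FPKM, so they were not tested. PLA2G4D, first described from psoriatic skin, had 0 and 4 counts in PBS and 16 and 29 in M5. Both M5 libraries had more counts than either PBS library. PLA2G4B had 15 and 10 counts in PBS against 12 and 6 in M5, and PLA2G4F had 0 and 3 in PBS and 1 and 6 in M5. For both of these the groups overlapped. PLA2G4B lies inside JMJD7-PLA2G4B, a read-through gene that shares all 10373 bp of it. Reads of the shared bases may have been counted for either gene or for neither. JMJD7-PLA2G4B had 139 and 135 counts in PBS and 78 and 88 in M5, and JMJD7 alone 29 and 18 in PBS and 29 and 44 in M5.

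**Figure D2:**
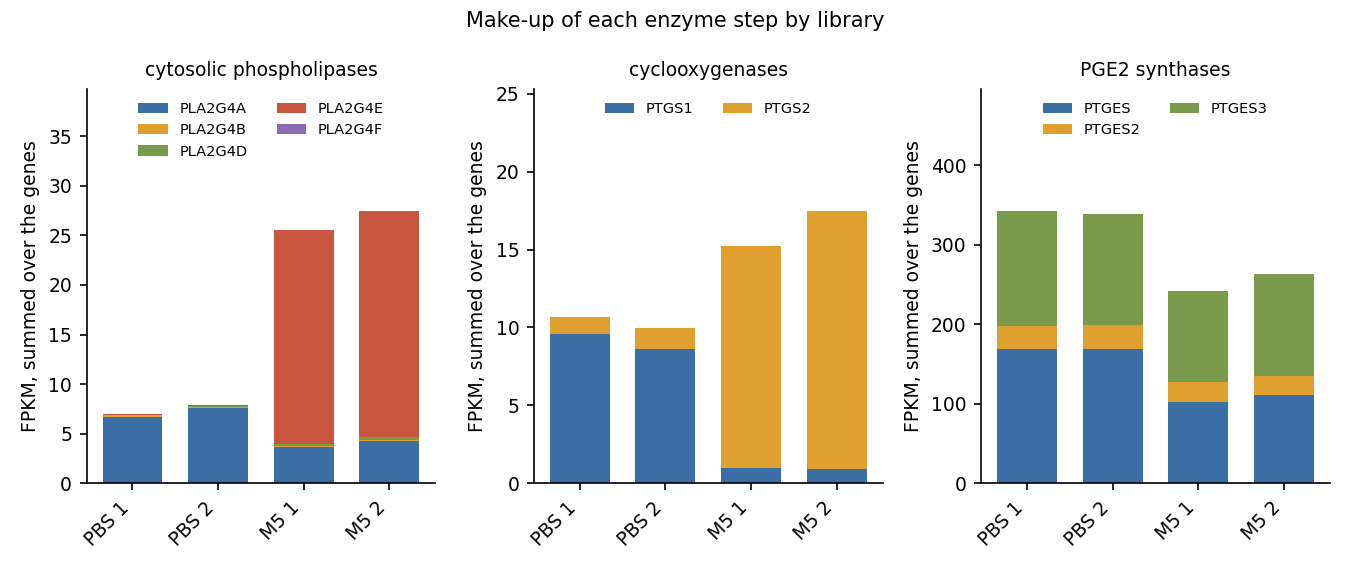
Summed FPKM (vertical axis, from 0) of the phospholipase members, the cyclooxygenases and the prostaglandin E synthases in each library (bars), divided by gene (colours). PLA2G4A and PTGS1 fill most of their bars in PBS, PLA2G4E and PTGS2 in M5, and the synthase bars keep a similar make-up.

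The synthases were the most abundant members and differed least. PTGES encodes the microsomal synthase that is often coupled to PTGS2. It (ENSG00000148344, chromosome 9, 129738331 to 129753047) was at 168.8 and 168.6 FPKM in PBS and at 102 and 111 FPKM in M5, with a log2 difference of -0.52 (SE 0.06), 1.43-fold lower. Both M5 libraries were below both PBS libraries, so PTGES and PTGS2 differed in opposite directions. In each library PTGES was above at least 98.9% of all genes with a row. PTGES2 encodes a membrane-associated synthase (ENSG00000148334, chromosome 9, 128120693 to 128128462) and was at 29.4 and 30.1 FPKM in PBS and at 24.8 and 23.8 FPKM in M5, with a log2 difference of -0.14 (SE 0.06). PTGES3 encodes a cytosolic synthase that is also p23, a co-chaperone of HSP90 (ENSG00000110958, chromosome 12, 56663341 to 56688408). It was at 144 and 140 FPKM in PBS and at 115 and 129 FPKM in M5, but at 468, 458, 418 and 466 CPM, where the groups overlapped. Its log2 difference was -0.07 (SE 0.06) and became 0.01 without M5 replicate 1. PTGES3 has processed pseudogenes that resemble its mRNA, of which PTGES3P1, named after its values were seen, had 55 and 32 counts in PBS and 43 and 63 in M5. PTGES2-AS1, which starts beside PTGES2 on the other strand without overlap, had 16 and 23 counts in PBS and 24 and 37 in M5.

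FPKM and CPM place the groups differently because FPKM carries no TMM factor. The median log2 difference of all tested genes was -0.01 with TMM and -0.17 with library totals, so a small difference such as those of PTGES2 and PTGES3 is of the size of that shift. With library totals the values were -0.29 for PTGES2 and -0.22 for PTGES3. The ratio of PTGES to PTGS2 by FPKM was 148 and 128 in PBS and 7.20 and 6.69 in M5, which does not depend on scaling.

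Of the 10 genes, 7 reached a mean of at least 1 FPKM over the 4 libraries and entered the fit. PLA2G4E did so only through its M5 libraries. In that fit 6 of the 7 had an adjusted p under 0.05 (edgeR's quasi-likelihood test, Benjamini-Hochberg adjustment over all genes tested), 2 higher and 4 lower in M5, where 55.9% of all tested genes did, 28.8% higher and 27.1% lower. Without the filter 22.4% of all 27356 genes did. Since the members were known from this comparison, nothing is read from their count.

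PTGS2 and PLA2G4A are neighbours. Their starts lie 148 kb apart on chromosome 1, pointing away from each other, and PTGS2 was higher in M5 while PLA2G4A was lower. Between them PACERR, a noncoding RNA that starts 0.195 kb from PTGS2 on the opposite strand, had 9 and 5 counts in PBS and 12 and 17 in M5. Within 1 Mb of the PTGS2 start 2 other genes were tested. TPR, a nuclear pore protein, fell by 0.24 on the log2 scale (edgeR adjusted p = 0.000949), and ODR4 was at 0.10 (edgeR adjusted p = 0.316). HMCN1, below the filter and not tested, had 208 and 197 counts in PBS and 45 and 54 in M5.

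PLA2G4B, PLA2G4E, PLA2G4D and PLA2G4F lie in this order within 319 kb on chromosome 15. Within 1 Mb of the PLA2G4B start 27 other genes were tested, of which 12 rose and 4 fell, beside 28.8% and 27.1% of all genes. Over both regions the split was 12 and 5 of 29, and 11 and 10 with library totals. The antisense gene ENSG00000257797 is counted among those that rose, but it passed the filter only through its M5 libraries. Since it lies within PLA2G4E and strands were not told apart, its reads may be those of that member. Its place in these counts is therefore not separate from PLA2G4E. EHD4, an endocytic ATPase, rose by 1.23 (edgeR adjusted p = 3.07e-12), CHAC1, a glutathione-degrading enzyme of the stress response, by 1.22, VPS18, a vesicle fusion subunit, by 1.18, and GANC, a glucosidase, by 1.13. The fitted log2 value of ENSG00000257797, 7.12 (SE 1.46, edgeR adjusted p = 0.000461), depends on the prior count, since it had no count in PBS. The other 4 lay between 1.13 and 1.23, and PLA2G4E, a member chosen with this comparison known, was at 8.96. Neighbours below the filter were not tested. Among them SPTBN5 had 45 and 61 counts in PBS and 212 and 253 in M5, and CAPN3 14 and 23 in PBS and 144 and 150 in M5. PLA2G4E-AS1 and JMJD7-PLA2G4B, whose counts are given above, were respectively higher and lower in M5. PTGS1, PTGES2 and PTGES are all on chromosome 9, but their starts are at least 1625 kb apart.

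**Figure D3:**
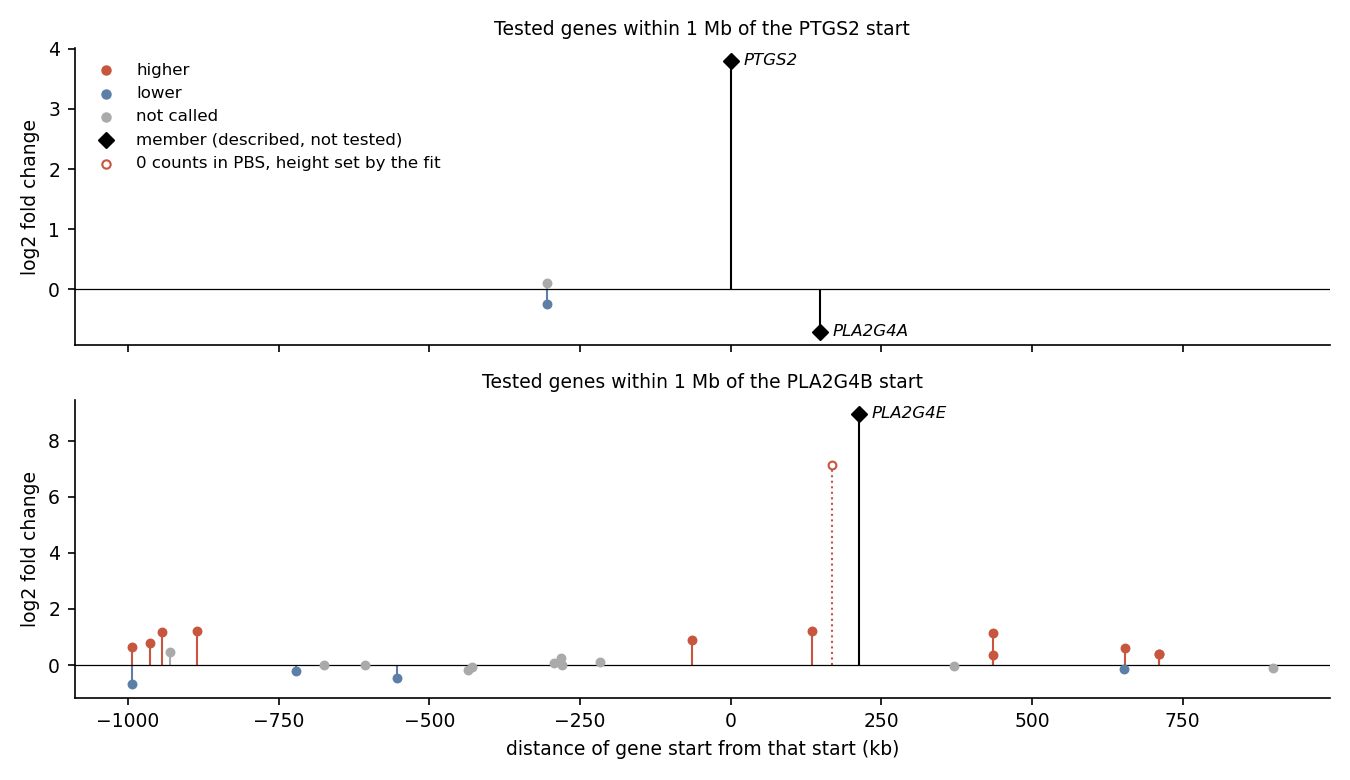
Log2 fold change, M5 against PBS (vertical axis), of each tested gene by the distance of its start from that of PTGS2 (upper) or PLA2G4B (lower) in kb. Diamonds are members, red and blue circles passed the test, and the open circle is ENSG00000257797, whose 0 counts in PBS let the fit set its height. PTGS2 and PLA2G4E are drawn highest in their regions. Both were chosen with this comparison known, so their height beside the neighbours is only a description.

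Genes that act before and after these enzymes were taken from 8 lists holding 134 genes, none of them a member, of which 117 had a row and 75 were tested. Of the 75, 31 rose and 23 fell with TMM, and 23 rose and 31 fell with library totals. With TMM 72.0% of the 75 changed, against 55.9% of all tested genes (28.8% up and 27.1% down). The median log2 fold change was 0.13 (-0.03 with totals), against -0.01 over all genes. Because the mean of the 4 libraries decides which genes are tested, a gene near 0 in one group entered only where the other was high.

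Among the 75 tested genes the lowest log2 value was in prostaglandin breakdown and transport. HPGD, the dehydrogenase that inactivates prostaglandins, was at 3.511 and 3.514 FPKM in PBS and at 0.267 and 0.357 in M5. It fell 10.1-fold, a log2 value of -3.34 (SE 0.20, edgeR adjusted p = 4.86e-11). SLCO2A1, the prostaglandin transporter that takes them up into cells, was at 1.12 FPKM in both PBS libraries and at 4.04 and 3.44 in M5, a rise of 1.89 (SE 0.16, edgeR adjusted p = 7.95e-09). PTGR3, a prostaglandin reductase, fell by 0.64 (edgeR adjusted p = 1.32e-06). Of the 6 tested genes of this list 1 rose and 4 fell, also with library totals.

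Among prostanoid receptors only PTGER2 and PTGER4, both receptors of prostaglandin E2 that raise cAMP, were tested. PTGER2 was at 5.93 and 7.08 FPKM in PBS and at 1.88 and 1.58 in M5, a fall of 1.76 on the log2 scale (SE 0.18, edgeR adjusted p = 1.38e-07). PTGER4 was at 2.22 and 2.39 FPKM in PBS and at 1.98 and 2.33 in M5, with a log2 value of 0.05 (SE 0.18, edgeR adjusted p = 0.834). By FPKM, PTGER2 was above PTGER4 in both PBS libraries and below it in both M5 libraries. PTGER1, PTGDR2, PTGIR and TBXA2R had at most 5 counts in any library, and PTGER3, PTGDR and PTGFR had no row.

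All 3 tested synthases of other prostanoids changed, 1 up and 2 down. AKR1B1, an aldose reductase that also makes prostaglandin F2α, rose by 0.71 (SE 0.06, edgeR adjusted p = 9.46e-09) from a mean of 42.4 to 62.4 FPKM. AKR1C3, which reduces prostaglandins D2 and H2, fell by 0.38 (edgeR adjusted p = 0.00354), and CBR1, which converts prostaglandin E2 to F2α, fell by 0.34 (edgeR adjusted p = 0.00285). HPGDS, which makes prostaglandin D2, had 1 count in all, and TBXAS1, which makes thromboxane, had 0 counts in PBS and 3 and 4 in M5. PRXL2B had 9 and 12 counts in PBS and 7 and 40 in M5. PTGDS and PTGIS had no row.

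The other phospholipases A2 moved in both directions, with 5 of 12 tested genes up and 5 down, also with library totals. PNPLA8, a calcium-independent phospholipase of mitochondria and peroxisomes, was at 3.92 and 3.62 FPKM in PBS and at 10.1 and 10.4 in M5, a rise of 1.60 (SE 0.09, edgeR adjusted p = 1.41e-11). PNPLA3, a lipid droplet hydrolase, fell by 1.69 (edgeR adjusted p = 6.31e-05). PLAAT4, a retinoid-inducible acyltransferase, fell by 1.00 (edgeR adjusted p = 0.00481), a call lost without PBS replicate 2 (-0.74, edgeR adjusted p = 0.0679).

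For the supply and return of arachidonate, 8 of 18 tested genes rose and 5 fell, or 5 and 7 with library totals. ANXA1, annexin A1, a phospholipid-binding protein described as an inhibitor of cytosolic phospholipase A2, was at 226 and 231 FPKM in PBS and at 500.2 and 551 in M5, a rise of 1.35 (SE 0.05, edgeR adjusted p = 1.01e-13). The lysophospholipid acyltransferases LPCAT2 and MBOAT1 fell by 0.95 (edgeR adjusted p = 1.42e-10) and 0.91 (edgeR adjusted p = 1.93e-06). Others of this class, named after their values were seen, went the other way. MBOAT2 rose by 0.87 (edgeR adjusted p = 5.98e-10), LPCAT1 by 0.56 (edgeR adjusted p = 0.0236) and AGPAT3 by 0.275 (edgeR adjusted p = 0.0018). LPCAT3 and MBOAT7 were not called.

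Of 16 tested kinases of the pathways that phosphorylate cytosolic phospholipase A2, 8 rose and 1 fell, or 6 and 3 with library totals. The share that changed with TMM, 56.2%, was near that of all tested genes, 55.9%. The 3 largest changes among those tested were rises, of the p38 kinase MAPK11 by 1.11 (edgeR adjusted p = 8.67e-07) and of the upstream kinases MAP2K1 by 0.92 (edgeR adjusted p = 9.63e-11) and MAP2K3 by 0.68 (edgeR adjusted p = 7.26e-08). CAMK2G, the gene that fell, was at -0.26 (edgeR adjusted p = 0.00633). MAP2K6, another upstream p38 kinase, and PRKCA were below the filter and were lower in M5. Phosphorylation was not measured.

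PTGS2 mRNA carries AU-rich elements that bind proteins controlling its decay. Of 12 tested genes for such proteins 6 rose and 2 fell, or 3 and 5 with library totals. ZC3H12A, the RNase regnase, was at 6.75 and 6.27 FPKM in PBS and at 45.3 and 44.2 in M5, a rise of 2.93 (SE 0.07, edgeR adjusted p = 7.39e-17). ZFP36, tristetraprolin, which promotes decay of such mRNAs, rose by 1.23 (edgeR adjusted p = 3.32e-07), and ZFP36L1 by 0.34 (edgeR adjusted p = 3.16e-05).

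On the lipoxygenase and leukotriene side, 2 of 6 tested genes rose and 3 fell, or 2 and 4 with library totals. ALOXE3, an epidermal lipoxygenase of the skin barrier, rose by 1.22 (edgeR adjusted p = 0.000702). EPHX2, the soluble epoxide hydrolase, fell by 1.31 (edgeR adjusted p = 0.000162), and MGST2, a microsomal transferase that can make leukotriene C4, by 0.70 (edgeR adjusted p = 0.000518). ALOX5, which starts leukotriene synthesis, had no row.

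Below the filter, 9 genes of these lists had an adjusted p under 0.05 in the edgeR fit without it, 4 higher and 5 lower in M5, and all are named after their values were seen. PLA2G4C, a cytosolic relative of the members, had 10 and 8 counts in PBS and 52 and 80 in M5. PLA2G2F, a secreted phospholipase, had 0 and 1 in the PBS libraries against 7 and 14 in M5, and ALOX5AP, the partner protein of 5-lipoxygenase, had 4 and 6 in PBS and 40 and 50 in M5. MGLL, the monoacylglycerol lipase, had 60 and 66 in PBS and 255 and 219 in M5. On the lower side MAP2K6 had 83 and 36 counts in PBS and 1 and 5 in M5, a log2 value of -4.36 (edgeR adjusted p = 0.000308 without the filter), which is below that of HPGD. PLA2G6, a calcium-independent phospholipase, had 86 and 104 in the PBS libraries against 22 and 37 in M5, and PRKCA, a protein kinase C, 102 and 107 in PBS and 62 and 49 in M5. CYP4F3, which inactivates leukotriene B4, had 75 and 56 in the PBS libraries against 27 and 24 in M5, and the reductase PTGR2 39 and 28 in PBS and 11 and 19 in M5.

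**Figure D4:**
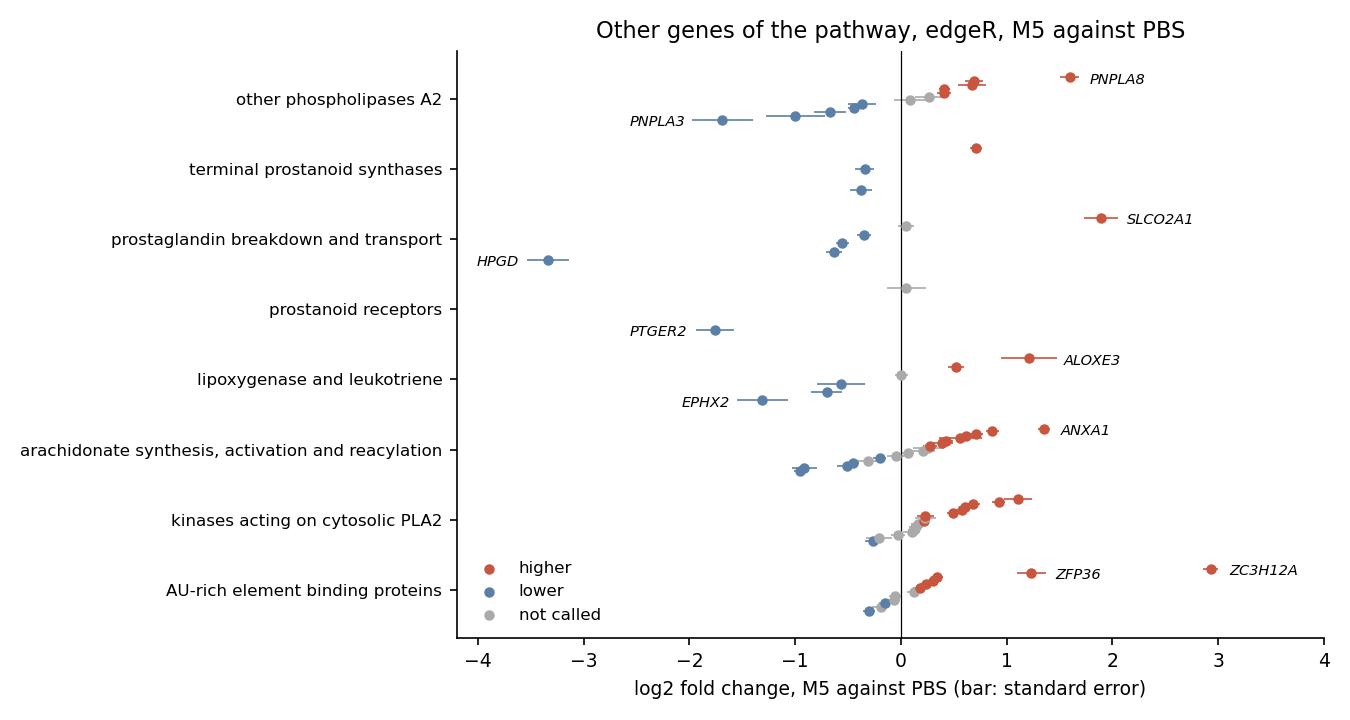
Log2 fold change, M5 against PBS (horizontal axis, bars for 1 standard error), of the 75 tested genes of the 8 lists, in red or blue where an adjusted p was under 0.05 in edgeR. HPGD at -3.34 and ZC3H12A at 2.93 lie farthest out, with SLCO2A1, PNPLA8, PTGER2 and PNPLA3 next.

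Likeness to 3 members was taken as the Euclidean distance of centred log2(CPM + 1) over the 4 libraries, which with 2 groups mainly follows the size of the difference. For PTGS2 the closest were SPRR2A, a cornified envelope precursor (distance 0.144), PTAFR, the receptor of platelet-activating factor (0.180), and HAS2, a hyaluronan synthase (0.181). SPRR2A had no count in PBS, so its place rests on the added 1 CPM. PTAFR was at 14.1 and 14.7 CPM in PBS and at 180.1 and 180.6 CPM in M5. For PTGES they were the noncoding RNA GAS5 (0.00917), TMEM237 (0.0227) and CDC6 (0.0253), and for PLA2G4A CUTC (0.0298), ZBTB5 (0.0518) and MED20 (0.0520).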

How the data were processed

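RNA sequencing of 4 HaCaT libraries was analysed. Per the file headers, the authors deposited a read count and an FPKM value per gene for each library. Dividing count by FPKM gave whole gene lengths to within 3.1e-08 bp. HISAT2, HTSeq 0.13.5 and GRCh38 are listed, per the submitters' processing notes, with no roles or order. The sources used here do not give the annotation release, the strand setting or the treatment of reads that align several times. Replicates differed by more than counting noise (median chi-square 0.976 in PBS and 1.435 in M5, 0.455 from sampling alone). Positions are those of GENCODE 29 (GRCh38), where 93.2% of the identifiers were found, and all 10 members matched RefSeq promoters (GRCh38.p14).

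From the counts, edgeR 4.0.16 (R 4.3.3, quasi-likelihood test, TMM scaling, two-sided) was fitted to genes whose FPKM averaged 1 or more over the 4 libraries, with Benjamini-Hochberg adjustment and a threshold of 0.05. Each SE was computed from the log2 value and the root of its F statistic. Such an SE can be too small where a group has few counts. In a single library 3 counts are 0.152 to 0.189 CPM. The step was tested on simulated data. Alternatives were library totals, median-of-ratios scaling, no filter, a stricter filter (average FPKM of 5), each library left out, a replicate block, DESeq2 1.42.0, limma 3.58.1 on log2(FPKM + 1) and log2(FPKM + 0.1), and an adjusted p of 0.01.

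The members, lists and tests were chosen with earlier results of these data known. Named genes are the members, the 3 called genes with the largest change per list (fewer where fewer were called), all receptors and terminal synthases with a row, antisense or overlapping partners, up to 5 called neighbours per chromosome, and the 3 most alike genes for PTGS2, PTGES and PLA2G4A.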

Additional observations from a re-analysis of the deposited data

How the results depend on the processing

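The counts of changed genes over all genes (4204 to 6675), over the pathway lists (39 to 58) and over the neighbours (13 to 21) stayed within 1.5 times the main counts under all alternatives run. With library totals 2183 of all genes were higher and 4492 lower, against 3114 and 2929 with TMM, and limma on log2(FPKM + 1) gave 2010 and 4122. Leaving out 1 library gave 4973 to 6006 changed genes in all, 48 to 58 pathway genes and 13 to 18 neighbours. The replicate numbers do not pair the libraries by any label: deviations of same-numbered libraries had a correlation across genes of -0.0135 with only 2 pairs. With the replicate block 6093 genes in all, 57 pathway genes and 17 neighbours changed. With DESeq2 these were 5150, 47 and 15.

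The members tested kept their direction under every alternative run, except PTGES3, at 0.013 without M5 replicate 1 and -0.149 without M5 replicate 2. Values lay between -0.86 and -0.59 for PLA2G4A, -3.23 and -2.36 for PTGS1, 2.87 and 3.90 for PTGS2, -0.67 and -0.46 for PTGES, and 4.47 and 9.23 for PLA2G4E. The smallest PTGS1, PTGS2 and PLA2G4E values came from limma on log2(FPKM + 1), whose pseudocount shrinks genes near 0. With it HPGD was at -1.78, SLCO2A1 at 1.16, PNPLA3 at -0.90, EPHX2 at -0.72 and ALOXE3 at 0.54, all still called. PLA2G4B, PLA2G4D and PLA2G4F could be fitted only without a filter. With a mean FPKM of at least 5, fewer genes are tested, and neither PTGER2 nor PTGER4 was among them. With 2 libraries a group, counts limit PLA2G4B, PLA2G4D and PLA2G4F.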
